A study of Mus musculus with 16 samples.

Results

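The clustered protocadherins are 59 of the 23284 gene symbols counted in mouse lumbar spinal cord, taken by symbol alone. They comprise 15 alpha genes, 22 beta genes and 22 gamma genes, the gamma genes being 12 of type A, 7 of type B and 3 of type C. All lie on chromosome 18 in the mm9 build, with the alpha genes from 37089939 to 37347314, the beta genes from 37424652 to 37681073 and the gamma genes from 37821599 to 38001526. A readthrough symbol, Pcdha4-g, is counted with the alpha genes and runs from 37112395 to 37999854, across all of the clusters. The family itself was chosen by results already seen in these samples, differences between the groups in these same counts, so its values are given as a description and each count of changed members stands beside the share of all genes called.

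Clustered protocadherins are cadherin-family membrane proteins that bind the identical isoform on a facing membrane. Each alpha and gamma gene has its own variable first exon with its own promoter, spliced to constant exons shared by its cluster, whereas each beta gene is a single exon and has no constant part. A neuron draws a stochastic set of the alternate isoforms, chosen through CTCF and cohesin looping of promoters to distant enhancers, and the combination lets its branches tell self from non-self. The C-type genes at the end of the alpha and gamma clusters differ in that they are not drawn at random but are used broadly within the cell types that express them.

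The cords came from mice 150 days old in 4 groups of 4, given by the design text as biological replicates. Mice of the cKO_SOD1 group were Atg7 cKO and carried SOD1G93A, a mutant human SOD1 transgene that models amyotrophic lateral sclerosis, and mice of the cWT_SOD1 group were Atg7 cWT with that transgene. The cKO and cWT mice had those Atg7 genotypes and no SOD1G93A label. The labels name no Cre driver, and the series title places the loss of autophagy, which needs the Atg7 enzyme, in motor neurons. The data are poly-A RNA-seq of bulk tissue, in which fewer cells of a type and less RNA per cell cannot be told apart.

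Library totals ran from 14989026 to 20892530 counts, and the 59 genes took 0.0498% to 0.0621% of them. Values below are counts per 1e6 library counts (CPM) scaled by TMM library size, unless named as FPKM. Atg7 RNA was at 20.4 to 29.6 CPM in cKO_SOD1, 20.8 to 30.3 CPM in cWT_SOD1, 26.4 to 28.8 CPM in cKO and 29.7 to 35.1 CPM in cWT libraries, and it did not pass the test of cKO against cWT without the transgene (log2 fold change −0.17, adjusted p = 1 by edgeR's quasi-likelihood test). A deletion limited to motor neurons leaves the Atg7 RNA of all other cells in such tissue, and the sources used here do not give the deleted exons. This level therefore does not check the labels. Of the marker genes in 9 lists of cell types, motor neurons and spinal interneurons included, none was at 0 in all libraries.

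The deposited counts of the alpha and gamma genes appear to come from about the length of the variable exon, not the whole transcript. For each gene, counts divided by FPKM and by library size gave the length in bases over which reads were taken. For 12 alpha genes this implied length had a median of 2143 bases, against a median annotated first exon of 2480 bases and a transcript of 5340 bases. For the 22 gamma genes the medians were 2329 bases implied, 2604 bases for the first exon and 4722 bases for the transcript. The annotated lengths are of a later mouse build. A read in a shared constant exon cannot be assigned to 1 gene, and how the authors counted such reads is not given in the sources used here. The variable exons are also similar to each other, so reads could be split among near-identical members, and differences between neighbouring members carry that uncertainty.

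Of the 59 genes, 56 had enough counts for testing. Pcdha4 had 0 to 4 counts per library and Pcdha4-g had 0 in all 16, although Pcdha4 was listed at 0.543 to 2.73 FPKM and Pcdha4-g at up to 2.10 FPKM. Their annotations overlap, so neither symbol's count can be read as its level. Pcdhb1, the first beta gene, had 0 to 10 counts per library.

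Per unit of length, 3 of the 5 C-type genes held the top ranks in cWT. The other C-type genes were lower there, Pcdhgc5 at rank 11 and Pcdhac1 at rank 28 with 2.71 ± 0.11 FPKM. Pcdhgc3, a gamma protein that binds Axin1 and dampens Wnt signalling, was the highest of the 59 in every group, with a mean of 28.8 ± 0.73 FPKM in cKO_SOD1, 55.8 ± 9.8 FPKM in cWT_SOD1, 21.7 ± 0.61 FPKM in cKO and 21.8 ± 0.52 FPKM in cWT (SD, n = 4 each). Pcdhac2, which serotonergic axons need for even spacing of their branches, was at rank 2 in cWT with 14.8 ± 1.0 FPKM and Pcdhgc4, which cortical and spinal interneurons need for survival, was at rank 3 with 9.58 ± 0.81 FPKM. The ranges over libraries of these 3 in cWT (21.2 to 22.5, 13.3 to 15.6 and 8.49 to 10.4 FPKM) did not overlap. From the fourth rank in cWT, Pcdhga7 at 6.70 ± 1.2 FPKM, Pcdhga11 at 6.41 ± 1.3 FPKM and Pcdhga4 at 6.21 ± 1.1 FPKM, neighbours in the order lay within each other's spread. The medians over genes in cWT were 1.88 FPKM for alpha, 2.27 FPKM for beta and 4.08 FPKM for gamma.

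In cWT_SOD1 the order of levels was different. Pcdhgc5 was second at 18.6 ± 3.1 FPKM in cWT_SOD1, against rank 11 and 4.54 ± 0.72 FPKM in cWT. Pcdhac2 was eighth at 7.64 ± 1.7 FPKM in cWT_SOD1, against rank 2 in cWT. In cKO_SOD1, Pcdhac2 was at rank 2 as in cKO, and Pcdhgc5 ranked 5 in cKO_SOD1 against 17 in cKO.

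**Figure D1:**
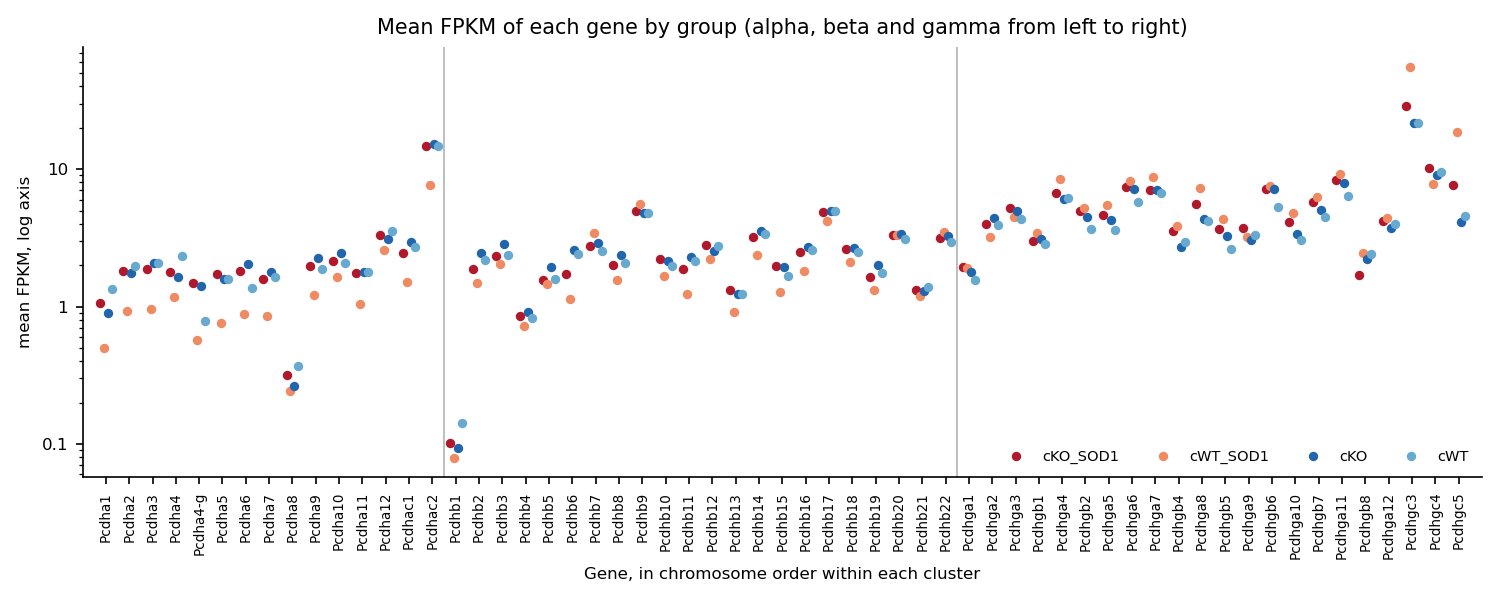
Mean FPKM of each of the 59 genes on a log axis, in chromosome order within the alpha, beta and gamma clusters, with a colour for each group (4 libraries a group). In cWT_SOD1 most alpha points lie below those of the other groups, and Pcdhgc3 (55.8 FPKM) and Pcdhgc5 (18.6 FPKM) lie above theirs.

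With intact Atg7 the transgene went with opposite differences in the clusters. The alpha sum was lower in cWT_SOD1 than in cWT in every library, the gamma sum was higher and the beta sum was lower by a smaller factor. The 15 alpha genes together had 47.4, 40.7, 33.8 and 47.6 CPM in cWT_SOD1, against 84.9, 85.5, 84.8 and 89.9 CPM in cWT. The 22 beta genes together averaged 142 ± 6.8 CPM in cWT_SOD1 and 170.1 ± 6.7 CPM in cWT, and the 22 gamma genes averaged 410.0 ± 27 CPM in cWT_SOD1 and 272 ± 20 CPM in cWT (SD, n = 4 each). For each of the 3 sums the libraries of cWT_SOD1 and cWT did not overlap. The family as a whole differed less, at 595 ± 16 CPM in cWT_SOD1 and 528 ± 21 CPM in cWT. Alpha transcripts were 7.14 ± 1.2% of the family's counts in cWT_SOD1 and 16.4 ± 0.92% in cWT, and gamma transcripts were 68.9 ± 2.8% in cWT_SOD1 and 51.4 ± 2.0% in cWT.

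**Figure D2:**
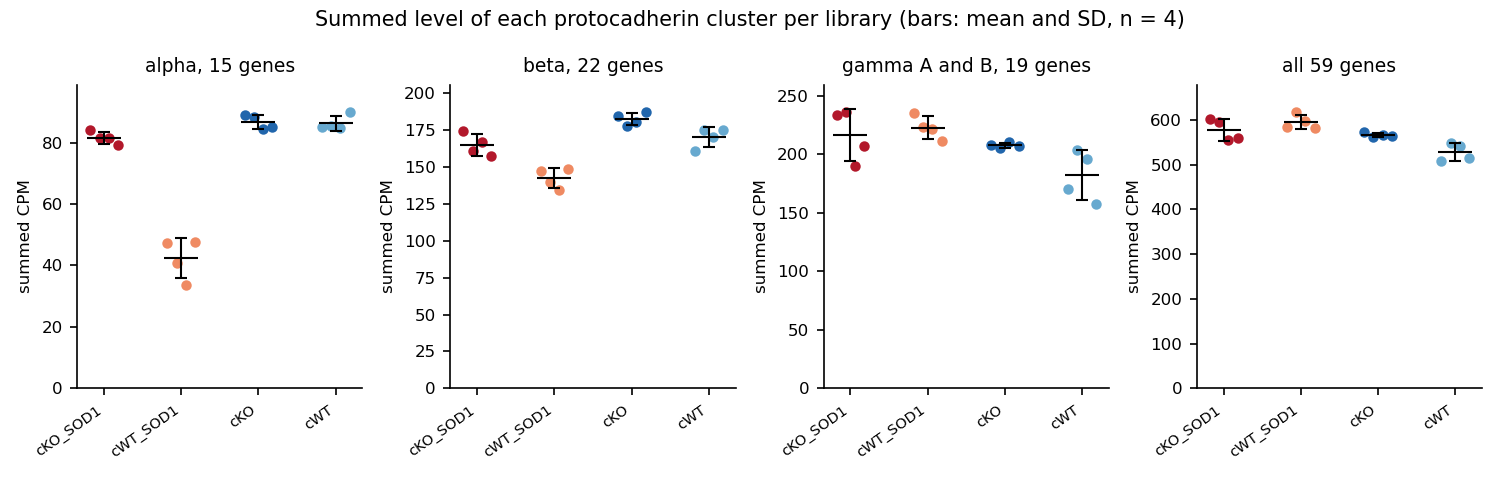
Summed CPM of the alpha, beta and gamma A and B genes and of all 59 genes in each library, with the mean and SD of each group (n = 4). The 4 cWT_SOD1 libraries hold the lowest alpha sums, 33.8 to 47.6 CPM, while the alpha sums of cKO_SOD1, 79.2 to 84.0 CPM, lie near those of cKO and cWT.

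Of the 56 genes tested, 38 passed an adjusted p of 0.05 for the transgene in cWT by edgeR's quasi-likelihood test with Benjamini-Hochberg adjustment over 15426 genes, 11 higher and 27 lower, where 66.3% of all genes tested passed, 33.2% higher and 33.1% lower. The share of members called is thus near that of all genes, and what follows is a description of the clusters by their members. The median log2 fold change of all genes was 0.01.

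All 13 alpha genes tested fell, by 0.53 to 1.57 on the log2 scale with a median of −1.06, a 2.09-fold lower level. Pcdha1, the first of the cluster, was at 1.23, 1.01, 0.396 and 1.26 CPM in cWT_SOD1, against 2.87, 3.48, 2.11 and 2.99 CPM in cWT. All cWT_SOD1 libraries lay below all cWT libraries, 2.96-fold lower (log2 −1.57 ± 0.26 SE, adjusted p = 4.7e-05). Pcdha12, the most abundant alternate alpha gene by CPM, was at 4.24, 5.37, 5.04 and 6.10 CPM in cWT_SOD1, against 8.35, 7.65, 7.83 and 8.03 CPM in cWT. It fell less, 1.54-fold (log2 −0.62 ± 0.12 SE, adjusted p = 2.5e-04). Pcdha10 had the smallest difference of the cluster (log2 −0.53 ± 0.15 SE, adjusted p = 0.0047) and Pcdha2 the second largest (log2 −1.29 ± 0.20 SE, adjusted p = 2.2e-05). For 12 of the 13 the 2 groups did not overlap, where 56.6% of all genes tested did not. The exception was Pcdha8, with 0.246 to 0.510 CPM in cWT_SOD1 and 0.443 to 1.20 CPM in cWT, whose adjusted p of 0.048 was above 0.05 in 19 of 25 other settings, among them the fits without any 1 cWT_SOD1 library.

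Among the 11 alternate alpha genes tested the size of the fall went with place in the cluster. Spearman's rho between chromosome order and the log2 fold change was 0.85 over these 11 genes, the genes farthest from the constant exons having the lowest values. The genes share libraries, and the lowest-count genes have the widest intervals. The same measure was 0.11 over the 21 beta genes and 0.20 over the 19 gamma A and B genes. For mean FPKM in cWT the rho with order over the 11 alpha genes was 0.35.

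The C-type genes, which close the alpha and gamma clusters, did not move together. Pcdhac2 was at 20.2, 15.04, 12.5 and 18.4 CPM in cWT_SOD1, against 35.9, 33.6, 37.6 and 39.4 CPM in cWT. It fell 2.22-fold with no overlap (log2 −1.15 ± 0.10 SE, adjusted p = 2.9e-08), and its share of alpha counts was 38.7 ± 2.7% in cWT_SOD1 and 42.4 ± 2.3% in cWT. Pcdhac1 was at 3.57, 3.02, 1.87 and 3.45 CPM in cWT_SOD1, against 6.04, 6.57, 6.06 and 6.48 CPM in cWT, 2.12-fold lower with no overlap (log2 −1.08 ± 0.16 SE, adjusted p = 1.6e-05).

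Of the 3 gamma C genes, Pcdhgc3 and Pcdhgc5 rose and Pcdhgc4, which lies between them, fell. Pcdhgc3 was at 97.3, 147, 140.1 and 116 CPM in cWT_SOD1, against 54.0, 53.0, 52.7 and 50.8 CPM in cWT. Every cWT_SOD1 library was above every cWT library, 2.38-fold higher (log2 1.25 ± 0.09 SE, adjusted p = 3.0e-09), and the cWT_SOD1 libraries differed among themselves more than the cWT libraries did. Pcdhgc5, the last gene of the gamma cluster, was at 35.2, 48.2, 47.9 and 37.0 CPM in cWT_SOD1, against 10.4, 8.74, 12.4 and 12.8 CPM in cWT. It had the highest fold change of the family, 3.79-fold (log2 1.92 ± 0.12 SE, adjusted p = 4.4e-10). Pcdhgc4 was at 22.5, 17.6, 19.6 and 20.4 CPM in cWT_SOD1, against 26.6, 23.5, 26.5 and 28.1 CPM in cWT, 1.31-fold lower with no overlap (log2 −0.39 ± 0.08 SE, adjusted p = 2.6e-04). Pcdhgc3 alone made up 30.4 ± 3.9% of gamma counts in cWT_SOD1 and 19.4 ± 1.3% in cWT.

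**Figure D3:**
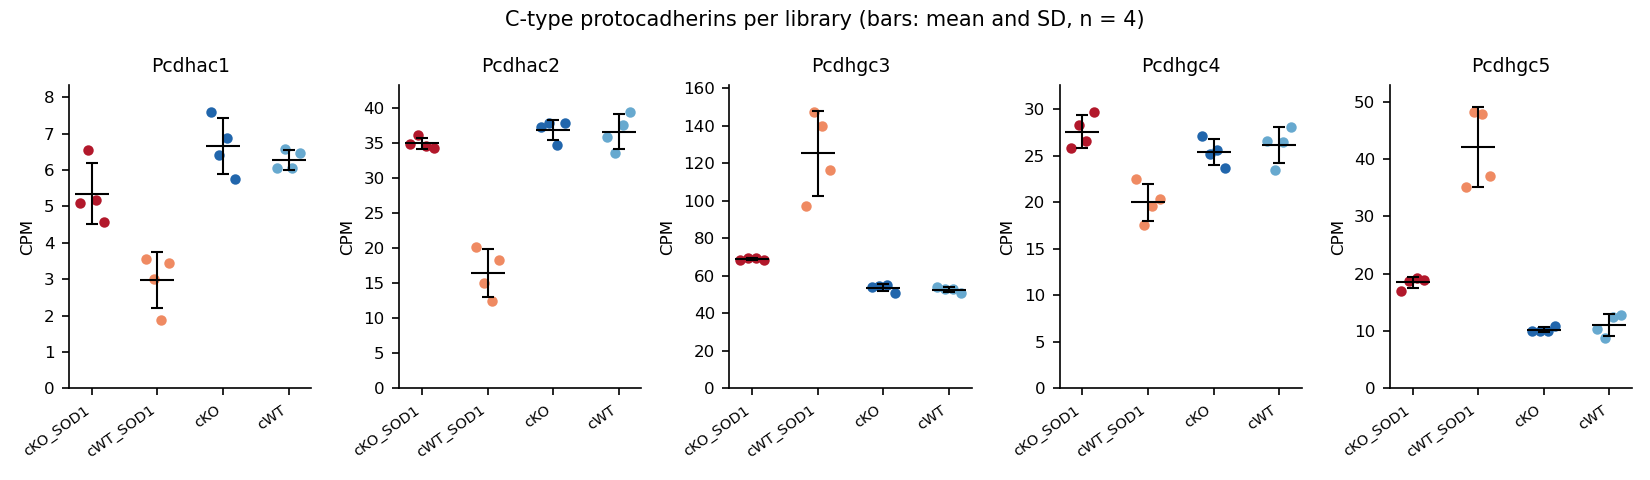
CPM of the 5 C-type genes in each library, with the mean and SD of each group (n = 4). Pcdhac1, Pcdhac2 and Pcdhgc4 are lowest in cWT_SOD1, while Pcdhgc3 and Pcdhgc5 are highest there, at 97.3 to 147 and 35.2 to 48.2 CPM, with cKO_SOD1 between cWT_SOD1 and the groups without the transgene.

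Of 21 beta genes tested, 13 fell, 1 rose and 7 did not pass, with a median log2 fold change of −0.32. Pcdhb6 had the lowest value (log2 −1.10 ± 0.31 SE, adjusted p = 0.0046), at 1.87 to 3.51 CPM in cWT_SOD1 and 3.79 to 7.56 CPM in cWT. Pcdhb11 followed (log2 −0.86 ± 0.18 SE, adjusted p = 4.2e-04). The steadier Pcdhb16 was at 10.2, 8.89, 8.27 and 9.48 CPM in cWT_SOD1, against 14.4, 14.3, 12.6 and 13.5 CPM in cWT, 1.49-fold lower (log2 −0.58 ± 0.09 SE, adjusted p = 1.2e-05). Pcdhb17, the most abundant beta gene by CPM, fell 1.23-fold (log2 −0.29 ± 0.07 SE, adjusted p = 7.8e-04), and in both genes the groups did not overlap. Pcdhb7 was the beta gene that rose (log2 0.40 ± 0.16 SE, adjusted p = 0.036), with 10.7 to 11.47 CPM in cWT_SOD1 and 5.27 to 10.2 CPM in cWT. Its value was 0.22 (adjusted p = 0.12) without cWT replicate 1, the lowest library, and it also missed the threshold without cWT replicate 4 or without cWT_SOD1 replicate 3 or 4, with the replicate block (adjusted p = 0.054) and with only the groups compared (adjusted p = 0.064). Pcdhb9, second to Pcdhb17 in mean CPM over all 16 libraries among the beta genes but above it in cWT_SOD1, averaged 15.6 ± 2.9 CPM in cWT_SOD1 and 13.9 ± 4 CPM in cWT (SD, n = 4 each), with overlap, and did not pass (log2 0.16 ± 0.21 SE, adjusted p = 0.51). Pcdhb10, called at an adjusted p of 0.046, missed the threshold in 21 of 27 other settings.

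The alternate gamma genes were higher on balance, by less than Pcdhgc3 and Pcdhgc5. Of the 19 gamma A and B genes, 8 rose, none fell and 11 did not pass, with a median log2 fold change of 0.32. Values were positive for 15 and negative for 4, the lowest being −0.39. Pcdhga8 was at 17.2, 15.1, 17.4 and 15.98 CPM in cWT_SOD1, against 10.6, 10.8, 10.6 and 8.97 CPM in cWT. It had the highest value of the 19 (log2 0.68 ± 0.11 SE, adjusted p = 2.4e-05), with no overlap. Pcdhga5 rose 1.41-fold (log2 0.49 ± 0.09 SE, adjusted p = 6.8e-05) and Pcdhgb7 rose 1.29-fold (log2 0.37 ± 0.11 SE, adjusted p = 0.0077). The sum of the 19 was 235, 223, 222 and 211 CPM in cWT_SOD1, against 170.2, 204, 196 and 158 CPM in cWT, so cWT replicates 1 and 4 were the low libraries. Without cWT replicate 1 the number that rose was 5, and over all other settings it ran from 5 to 12, the 12 being with the deposited FPKM values. The number that fell ran from 0 to 1. It was 1 with DESeq2, with the sex term and without cKO_SOD1 replicate 3, cWT_SOD1 replicate 1 or 3, or cWT replicate 4. Pcdhga11, called at an adjusted p of 0.046, missed the threshold in 13 of 27 other settings.

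Under the Atg7 cKO genotype the transgene went with far smaller differences. Only Pcdhgc3 and Pcdhgc5 passed among the 56 genes, both higher, where 7.28% of all genes tested passed, 4.8% higher and 2.48% lower. Pcdhgc5 was at 17.04, 18.8, 19.2 and 18.9 CPM in cKO_SOD1, against 10.1, 10.03, 10.1 and 10.9 CPM in cKO. It rose 1.801-fold with no overlap (log2 0.85 ± 0.12 SE, adjusted p = 2.3e-04 by edgeR's quasi-likelihood test). Pcdhgc3 was at 68.3, 69.5, 69.6 and 68.5 CPM in cKO_SOD1, against 54.1, 54.7, 55.1 and 50.9 CPM in cKO, 1.28-fold higher with no overlap (log2 0.36 ± 0.09 SE, adjusted p = 0.020). Its adjusted p was 0.0507 without cKO_SOD1 replicate 2, 0.0501 without cKO replicate 1 and 0.0583 without cKO replicate 4.

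No alpha gene passed between cKO_SOD1 and cKO, and the alpha median log2 fold change was −0.08. Pcdhac2 was at 34.8, 36.1, 34.6 and 34.3 CPM in cKO_SOD1, against 37.3, 37.8, 34.8 and 37.8 CPM in cKO, with a log2 fold change of −0.08 and a 95% interval from −0.28 to 0.12. That interval lies apart from the 95% interval of −1.37 to −0.94 for the transgene in cWT. Of the 13 alpha genes, 5 had positive and 8 negative values, and the 2 groups overlapped for all 13, where 20.9% of all genes tested did not overlap. Pcdhac1 had the lowest alpha value (log2 −0.32 ± 0.15 SE, adjusted p = 0.24) and Pcdhgc4 had 0.12 ± 0.08 SE (adjusted p = 0.39). No beta gene passed, and 18 of 21 had negative values with a median of −0.13, where Pcdhb6 had the lowest (log2 −0.64 ± 0.29 SE, adjusted p = 0.21). With only the 8 libraries of these 2 groups in the fit, 5 members passed, 3 higher and 2 lower.

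Among mice with the transgene the Atg7 cKO genotype went with higher levels of 12 alpha genes, 11 beta genes and Pcdhgc4 and with lower levels of Pcdhgc3 and Pcdhgc5. The 19 gamma A and B genes had no shared direction, with 8 positive and 11 negative values, a median log2 fold change of −0.04, and 1 gene higher and 1 lower. The cWT_SOD1 libraries enter both comparisons, so the values below are the genotype's own and are not a second line of evidence. Of 56 genes, 25 were higher and 3 lower in cKO_SOD1 than in cWT_SOD1, where 58.2% of all genes tested passed, 29.1% higher and 29.1% lower. Of 13 alpha genes, 12 were higher with a median log2 fold change of 1.01, a 2.01-fold level, and Pcdha8 did not pass (log2 0.59 ± 0.40 SE, adjusted p = 0.22). The alpha sum averaged 81.6 ± 2.0 CPM in cKO_SOD1 and 42.4 ± 6.6 CPM in cWT_SOD1 (SD, n = 4 each).

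Pcdhac2 had a mean of 34.96 ± 0.81 CPM in cKO_SOD1 and 16.5 ± 3.4 CPM in cWT_SOD1 (SD, n = 4 each), and it was 2.12-fold higher (log2 1.09 ± 0.10 SE, adjusted p = 1.6e-07 by edgeR's quasi-likelihood test). Pcdha6 had the highest alpha value (log2 1.22 ± 0.18 SE, adjusted p = 1.6e-05), followed by Pcdha1 (log2 1.21 ± 0.27 SE, adjusted p = 8.9e-04). Pcdha10 had the lowest among those that passed (log2 0.48 ± 0.15 SE, adjusted p = 0.010). Spearman's rho of these values with order along the 11 alternate alpha genes was −0.80.

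Of 21 beta genes, 11 were higher and none lower, with a median of 0.32. The number higher was 7 without cKO_SOD1 replicate 3 and 7 without cWT_SOD1 replicate 2, and 1 beta gene was lower without cKO_SOD1 replicate 1 or without cWT replicate 1. Pcdhb15 had the highest value (log2 0.64 ± 0.12 SE, adjusted p = 2.4e-04) and Pcdhb11 the next (log2 0.61 ± 0.18 SE, adjusted p = 0.0080), while Pcdhb19 (log2 0.31 ± 0.12 SE, adjusted p = 0.037) missed the threshold in 9 of 27 other settings. In the gamma cluster Pcdhgc5 was 2.28-fold lower (log2 −1.19 ± 0.11 SE, adjusted p = 1.8e-07), Pcdhgc3 was 1.82-fold lower (log2 −0.86 ± 0.09 SE, adjusted p = 4.4e-07) and Pcdhga8 was 1.23-fold lower (log2 −0.30 ± 0.11 SE, adjusted p = 0.022). The libraries of cKO_SOD1 and cWT_SOD1 did not overlap for any of these 3. The share of all genes without overlap was not counted for these groups, and 58.2% of all genes tested passed there. Pcdhgc4, at 25.8, 28.3, 26.6 and 29.7 CPM in cKO_SOD1 and 22.5, 17.6, 19.6 and 20.4 CPM in cWT_SOD1, was 1.38-fold higher (log2 0.47 ± 0.08 SE, adjusted p = 5.7e-05). Pcdhga9 was also higher (log2 0.26 ± 0.10 SE, adjusted p = 0.038) but missed the threshold in 10 of 27 other settings.

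**Figure D4:**
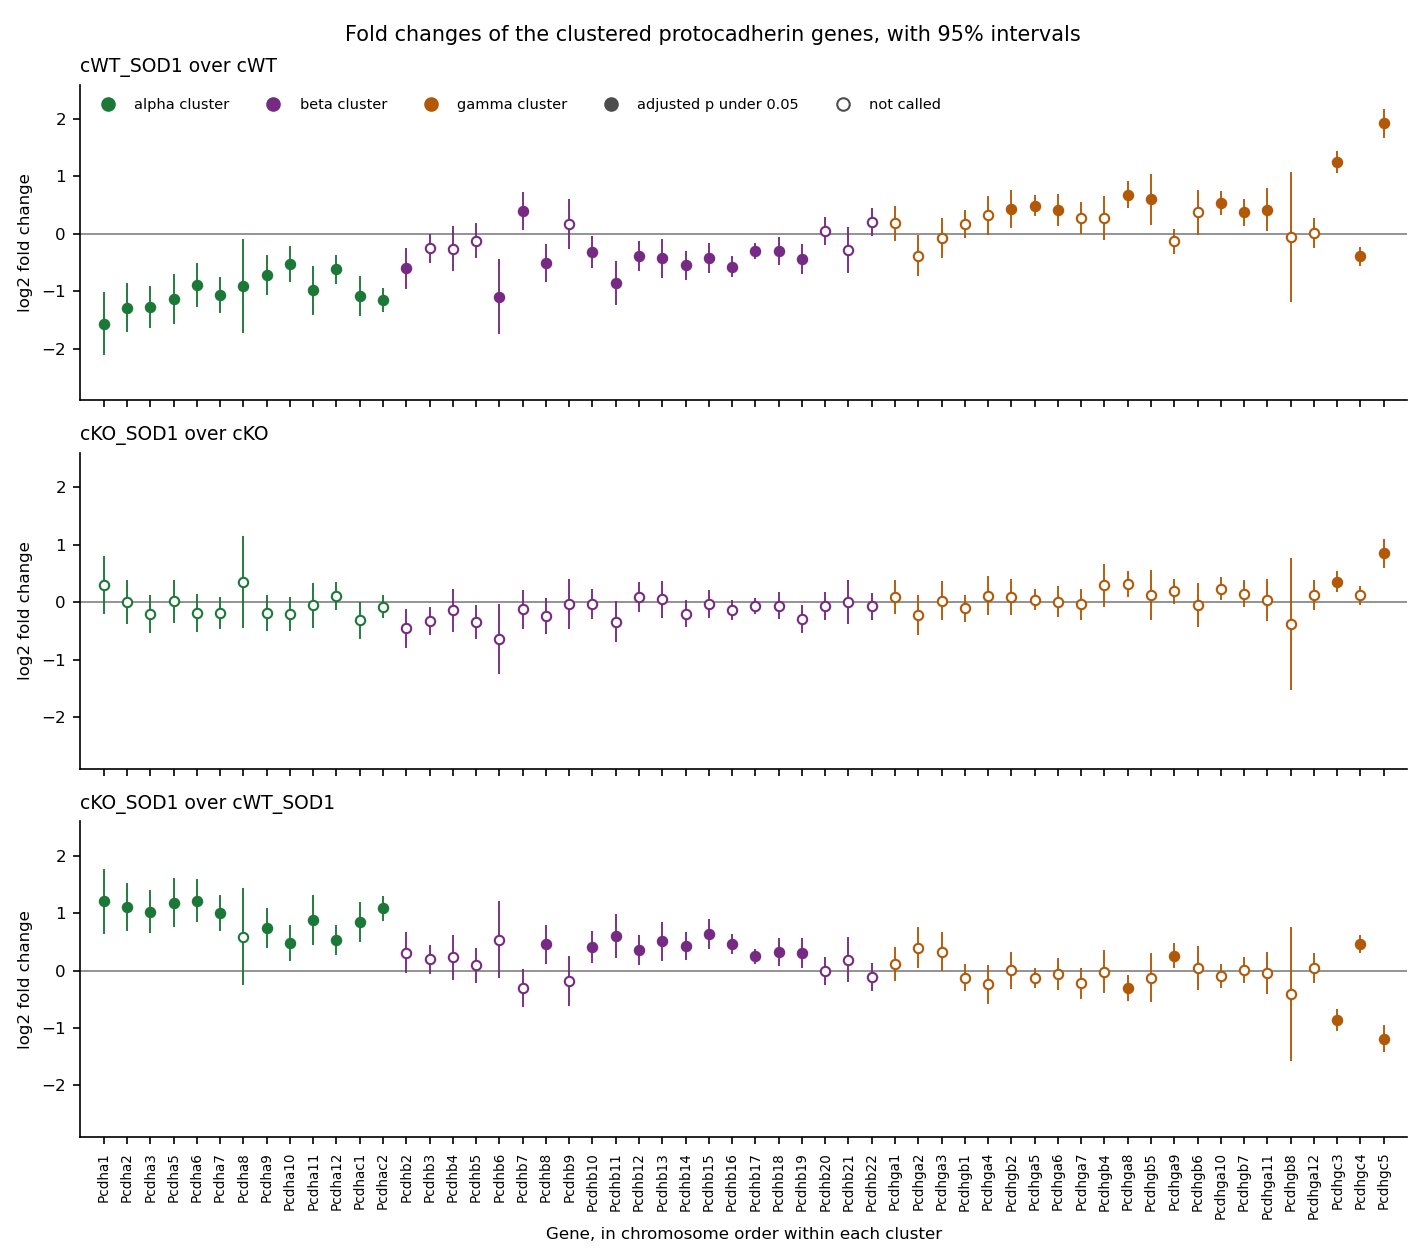
Log2 fold changes with 95% intervals of the 56 genes tested, in chromosome order within each cluster, for the transgene in cWT (top), the transgene in cKO (middle) and the cKO genotype with the transgene (bottom). Filled points passed an adjusted p of 0.05, and the alpha genes lie between −1.57 and −0.53 in the top panel, around 0 in the middle panel and between 0.48 and 1.22 in the bottom panel.

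The interaction, the transgene effect in cKO minus that in cWT, tests whether the 2 transgene effects differ. It passed for 16 of 56 members, 13 with positive and 3 with negative values, where 45.0% of all genes tested passed, 23.2% positive and 21.8% negative. Of the 13 alpha genes 10 passed, all positive, with a cluster median of 0.94. Pcdha1 had the highest value (log2 1.86 ± 0.36 SE, adjusted p = 4.3e-04 by edgeR's quasi-likelihood test), followed by Pcdha2 (log2 1.29 ± 0.27 SE, adjusted p = 9.8e-04), and Pcdhac2 had the smallest p (log2 1.07 ± 0.14 SE, adjusted p = 1.8e-05). Pcdha8, Pcdha9 and Pcdha10 did not pass. The gamma genes that passed were Pcdhgc5 (log2 −1.07 ± 0.17 SE), Pcdhgc3 (log2 −0.89 ± 0.13 SE) and Pcdhga5 (log2 −0.44 ± 0.12 SE) with negative values and Pcdhgc4 (log2 0.51 ± 0.11 SE) with a positive one. Of the beta genes Pcdhb12 and Pcdhb16 passed. Pcdha6 (log2 0.71 ± 0.24 SE, adjusted p = 0.024) missed the threshold in 5 of 26 other settings. These were limma on FPKM (pseudocount 0.1 or 1) and fits without cKO_SOD1 replicate 4, cWT_SOD1 replicate 4 or cWT replicate 3. Pcdhb12 (log2 0.48 ± 0.17 SE, adjusted p = 0.032) missed the threshold in 7 of 26 other settings.

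Without the transgene no member passed between cKO and cWT by edgeR's quasi-likelihood test, nor by DESeq2 or limma, where 0.0259% of all genes tested passed (4 genes), 0.00648% higher and 0.0194% lower, and 543 genes had an unadjusted p under 0.05. The members with the smallest p were Pcdhga5 (log2 0.31 ± 0.09 SE, adjusted p = 0.86) and Pcdha6 (log2 0.51 ± 0.16 SE, adjusted p = 1). Pcdhga5 was at 10.4, 11.2, 10.5 and 9.60 CPM in cKO, against 7.58, 8.51, 7.94 and 9.58 CPM in cWT. The groups met at 9.60 and 9.58 CPM without overlapping. Cluster medians were 0.01 for alpha, 0.11 for beta and 0.18 for gamma, and gamma A and B genes had positive values in 14 of 19 cases, beside the low sums of cWT replicates 1 and 4 given above. The 95% interval for Pcdhac2 ran from −0.19 to 0.21 and that for Pcdhgc3 from −0.16 to 0.22 on the log2 scale.

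The regulators that act on these promoters differed less than the alpha genes. Ctcf, which pairs with cohesin to choose alpha and gamma promoters, was at 68.8 ± 1.5 CPM in cWT_SOD1 and 67.5 ± 2.0 CPM in cWT, and did not pass (log2 0.03 ± 0.04 SE, adjusted p = 0.53). Of 18 listed regulators, 9 rose and 2 fell with the transgene in cWT, where 66.3% of all genes tested passed. The cohesin subunit genes Stag1 (log2 0.51 ± 0.06 SE, adjusted p = 7.6e-07) and Stag2 (log2 0.29 ± 0.05 SE, adjusted p = 1.6e-04) and the repressor gene Rest (log2 0.50 ± 0.08 SE, adjusted p = 3.9e-05) rose. The cohesin regulator Pds5b (log2 −0.29 ± 0.05 SE, adjusted p = 2.3e-05) and the maintenance DNA methyltransferase Dnmt1 (log2 −0.11 ± 0.05 SE, adjusted p = 0.043) fell. With the transgene in cKO none of the 18 passed, where 7.28% of all genes tested did. Between cKO_SOD1 and cWT_SOD1, 2 were higher and 7 lower, and the interaction passed for 2 with positive and 7 with negative values. Of all genes tested, 58.2% passed the first and 45.0% the second.

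Genes whose products bind or process clustered protocadherins were mixed. Of 15, 6 rose and 7 fell with the transgene in cWT, where 66.3% of all genes tested passed. Ptk2b, the kinase Pyk2 that alpha and gamma protocadherins inhibit, was at 33.3 CPM on average in cWT_SOD1 and 8.70 CPM in cWT (log2 1.94, adjusted p = 2.2e-08), and its relative Ptk2 did not pass (log2 0.07, adjusted p = 0.20). Marcks, a membrane and actin protein downstream of gamma protocadherins in dendrite growth, rose (log2 1.12, adjusted p = 1.6e-10), as did Adam10, whose protease sheds protocadherin ectodomains (log2 0.49, adjusted p = 6.1e-09). Cyfip2 and Nckap1, of the WAVE actin complex that alpha protocadherin tails bind, fell (log2 −0.85 and −0.56), and so did the synaptic partner Nlgn2 (log2 −0.62). With the transgene in cKO, Marcks alone of the 15 passed (log2 0.39, adjusted p = 7.6e-04), where 7.28% of all genes tested did. Between cKO_SOD1 and cWT_SOD1, 7 of the 15 were higher and 5 lower, and the interaction passed for 6 with positive and 5 with negative values. Of all genes tested, 58.2% passed the first and 45.0% the second.

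The non-clustered protocadherins, single genes outside the clusters, were lower in cWT_SOD1 in most cases. Of 11 tested, 10 fell and 1 rose against cWT, with a median log2 fold change of −0.50, where the alpha median was −1.06 and the gamma A and B median 0.32. Of all genes tested 66.3% passed, 33.2% higher and 33.1% lower. The falls with the smallest p were in Pcdh11x (log2 −0.97, adjusted p = 2.3e-08), Pcdh20 (log2 −0.92, adjusted p = 2.1e-08) and Pcdh7 (log2 −0.66, adjusted p = 2.5e-08), and Pcdh15 rose (log2 0.41, adjusted p = 7.8e-05). None passed with the transgene in cKO, where 7.28% of all genes tested did. Between cKO_SOD1 and cWT_SOD1, 10 were higher and 1 lower, and the interaction passed for 9 with positive and 1 with a negative value. Of all genes tested, 58.2% passed the first and 45.0% the second.

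Other genes near the clusters moved in both directions. Of 28 tested genes within 500 kb, the non-clustered Pcdh1 and Pcdh12 among them, 8 rose and 8 fell with the transgene in cWT, with a median log2 fold change of 0.01. Of all genes tested 66.3% passed, 33.2% higher and 33.1% lower. Taf7, a transcription factor gene at 37800145 to 37803858 between the beta and gamma clusters, fell 1.33-fold (log2 −0.41 ± 0.11 SE, adjusted p = 0.0031). It was picked for this report because of that place. Of the others, Hbegf (log2 2.53, adjusted p = 1.9e-11) and Cd14 (log2 3.16, adjusted p = 5.1e-09), before the alpha cluster, rose, and Rell2 (log2 −1.30, adjusted p = 7.8e-09), after the gamma cluster, fell. In cKO, Hbegf (log2 0.73) and Cd14 (log2 0.99) were the 2 of the 28 that passed with the transgene, where 7.28% of all genes tested did. Between cKO_SOD1 and cWT_SOD1, 6 of the 28 were higher and 9 lower, and the interaction passed for 4 with positive and 6 with negative values. Of all genes tested, 58.2% passed the first and 45.0% the second.

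Markers of cell types moved beside these genes, and their part in the results was not tested. For the transgene in cWT 66.3% of all genes tested passed, 33.2% higher and 33.1% lower. All 10 pan-neuronal markers fell with the transgene in cWT, with a median log2 fold change of −0.93 and a summed level of 3511 to 5093 CPM in cWT_SOD1 against 9528 to 10112 CPM in cWT. Of 8 spinal interneuron markers 7 fell (median −0.89), and of 8 motor neuron markers all fell (median −1.74). Of 8 astrocyte markers 6 rose (median 0.81), with a sum of 18825 to 23453 CPM in cWT_SOD1 against 6533 to 6794 CPM in cWT. All 8 microglial markers rose (median 2.40), with a sum of 1378 to 2131 CPM in cWT_SOD1 against 268 to 298 CPM in cWT. Of the 5 oligodendrocyte markers 4 fell (median −0.30), of 5 precursor markers 2 rose and 1 fell, of 5 endothelial markers 1 rose, and of 4 ependymal and choroid plexus markers tested 2 rose.

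With the transgene in cKO the neuronal lists diverged from each other. In that comparison 7.28% of all genes tested passed, 4.8% higher and 2.48% lower. All 8 motor neuron markers fell, with a median log2 fold change of −1.21 and a sum of 167 to 218 CPM in cKO_SOD1 against 420.4 to 483 CPM in cKO. No interneuron marker passed (median −0.09), and 5 of 10 pan-neuronal markers fell (median −0.19, sum 6890 to 7356 CPM in cKO_SOD1 against 9143 to 9470 CPM in cKO). Beside them the alpha median was −0.08 and no alpha gene passed. Of the glial lists, 6 of 8 microglial markers rose (median 0.78). Only 2 of 8 astrocyte markers rose (median 0.20), with a sum of 10323 to 10914 CPM in cKO_SOD1 against 6366 to 7096 CPM in cKO. Pcdhgc3 and Pcdhgc5 rose beside them.

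Between cKO_SOD1 and cWT_SOD1 all 10 pan-neuronal and 7 of 8 interneuron markers were higher and all 8 microglial and 6 of 8 astrocyte markers were lower, while 2 motor neuron markers were higher and 2 lower. There 58.2% of all genes tested passed, 29.1% higher and 29.1% lower. Without the transgene, 2 of 8 motor neuron markers were lower in cKO than in cWT (median −0.40), where 0.0259% of all genes tested passed. No marker of the other cell type lists passed in that comparison. Within cWT_SOD1 the order of the libraries was shared by some genes and marker sums. Pcdhgc3 was highest in replicate 2 (147 CPM), then replicates 3 (140.1), 4 (116) and 1 (97.3), and the astrocyte sum was 23453, 22439, 20639 and 18825 CPM in the same order of libraries. Pcdhac2 was highest in replicate 1 (20.2 CPM), then replicates 4 (18.4), 2 (15.04) and 3 (12.5), and the pan-neuronal sum was 5093, 4639, 3613 and 3511 CPM in that order of libraries. Pcdhgc5 had the order of Pcdhgc3, at 48.2, 47.9, 37.0 and 35.2 CPM. Other orders differed from these. The alpha sum was highest in replicate 4 (47.6 CPM), then replicates 1 (47.4), 2 (40.7) and 3 (33.8). Against the pan-neuronal sum only replicates 1 and 4 changed places. Pcdhgc4 was lowest in replicate 2 (17.6 CPM). The microglial sum was highest in replicate 3 (2131 CPM). With 4 libraries the orders are given as a description.

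A few members varied between mice of 1 group far more than most genes. Pcdhgb8 had a within-group SD of 0.93 on the log2 CPM scale, above 99.6% of the genes tested, where the median was 0.13 over all genes tested and 0.20 over the 56 members. Pcdhgb8 was at 7.44, 1.73, 5.45 and 1.64 CPM in cKO_SOD1, 2.46, 2.12, 5.66 and 11.4 CPM in cWT_SOD1, 7.06, 7.11, 4.82 and 2.10 CPM in cKO and 4.66, 7.31, 7.50 and 2.77 CPM in cWT. Each group thus spans a wide range, and no comparison of groups passed for this gene, with a 95% interval from −1.19 to 1.08 for the transgene in cWT.

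Pcdhb6 had a within-group SD of 0.47, above 95.01% of the genes tested, and Pcdhb9 one of 0.33. In cWT, Pcdhb6 was at 3.79, 7.25, 7.56 and 3.88 CPM in the same order of replicates, low in replicates 1 and 4 as Pcdhgb8 was, and Pcdhb9 was at 12.9, 10.9, 12.1 and 19.9 CPM, highest in replicate 4. In cKO, replicate 4 was lowest for Pcdhb6 (3.85 CPM) and for Pcdhgb8 (2.10 CPM) and highest for Pcdhb9 (19.2 CPM). In cKO_SOD1, replicate 1 was highest for Pcdhb6 (6.03 CPM) and Pcdhgb8 (7.44 CPM) and lowest for Pcdhb9 (9.89 CPM), and in cWT_SOD1 replicate 4 was highest for Pcdhb6 (3.51 CPM) and Pcdhgb8 (11.4 CPM) and lowest for Pcdhb9 (11.7 CPM). The order was not shared throughout, since replicate 3 of cKO_SOD1 was second highest for Pcdhgb8 (5.45 CPM) and lowest for Pcdhb6 (2.56 CPM), and so was replicate 3 of cWT_SOD1 (5.66 and 1.87 CPM). These 3 genes were singled out after their values were seen.

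**Figure D5:**
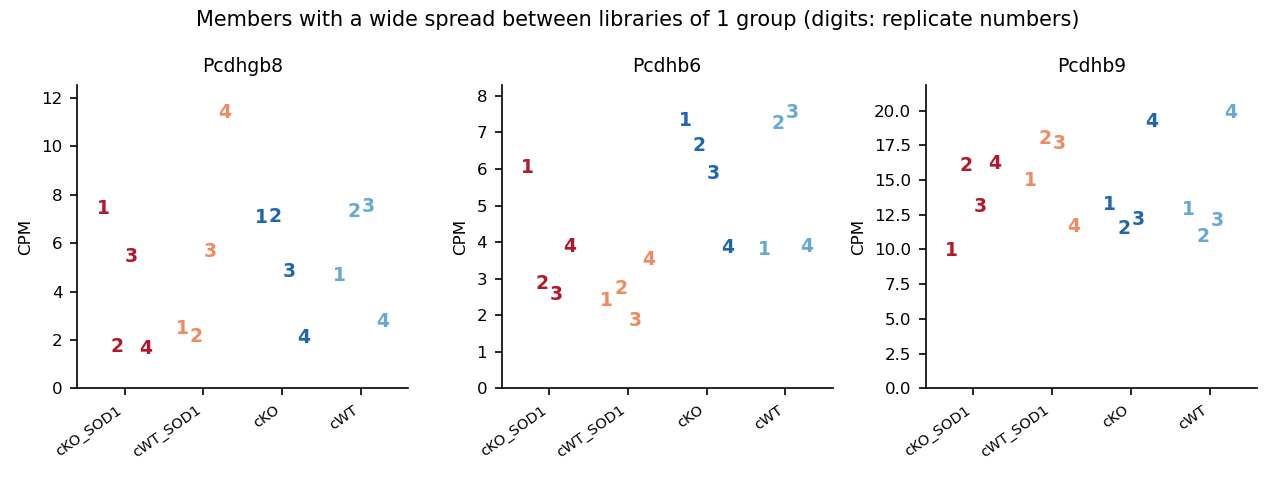
CPM of Pcdhgb8, Pcdhb6 and Pcdhb9 in each library, drawn as its replicate number within the group. The groups overlap for Pcdhgb8, whose highest library is cWT_SOD1 replicate 4 at 11.4 CPM.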

How the data were processed

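RNA was sequenced from 16 lumbar spinal cords, 4 per group, after poly-A enrichment and TruSeq library preparation, per the labels' protocols. The submitters' processing notes list mm9, bcl2fastq 1.8.4, Cufflinks 2.0.2 and TopHat2 2.0.4 but not what each was used for. The authors deposited raw counts per gene symbol and FPKM values (per transcript length and library size), the FPKM both in 1 table and per library, with identical values in all 23699 entries. The sources used here do not give the counting tool or its use of strand. FPKM entries with a repeated symbol (464) were left out.

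Counts were tested with the quasi-likelihood test of edgeR 4.0.16 under R 4.3.3, after TMM scaling and filterByExpr (15426 genes left), in 1 fit of all 16 libraries with a coefficient per group. P-values were adjusted by Benjamini-Hochberg over all genes tested, with calls at 0.05. FPKM served to compare levels between genes. Limma 3.58.1, voom and DESeq2 1.42.0 were alternatives, beside other scalings, filters, a sex term (each group had 2 females and 2 males by Xist and Y-linked counts), the replicate block and leaving out each library. Limma on FPKM used log2 with a pseudocount of 0.1 or 1. Genes within 500 kb were taken by their mm9 loci. Annotated exon lengths are of GRCm38 (GENCODE M21). No pair of libraries in a group was a duplicate: the mean chi-square per gene ran from 2.79 to 38.9. Counting error sets a limit for genes of few counts, and no molecular tags are named.

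The members, the gene lists (139 of 139 entries matched, 1 by an older symbol) and the rule for named genes were chosen with earlier results of these data known. The rule takes the C-type genes, the 3 most abundant genes of each cluster by CPM, up to 2 called genes of each cluster with the highest and lowest fold change per comparison, the 2 smallest p where none is called, and up to 3 called genes per direction of each other list. Genes named outside it (such as Pcdha8, Pcdhb10, Pcdhga8, Pcdhga11, Pcdhgb8, Ctcf, Ptk2 and Taf7) were picked after their values were seen, for weak support, level, place or role. Protocadherin sequences are not shown.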

Additional observations from a re-analysis of the deposited data

Results flagged for a closer look

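For 12 named members the transgene effect differed between the Atg7 genotypes, by edgeR's test of the interaction (transgene effect in cKO minus that in cWT, log2). Among all 56 members tested 16 passed, where 45.0% of all genes tested passed. Pcdha1, Pcdha2, Pcdha6, Pcdhb12 and Pcdhga5 were named because this test called them, so their passing was set in advance. Positive values belonged to Pcdha1 (1.86, adjusted p = 4.3e-04), Pcdha2 (1.29, adjusted p = 9.8e-04), Pcdhac2 (1.07, adjusted p = 1.8e-05), Pcdhac1 (0.77, adjusted p = 0.0096), Pcdha12 (0.73, adjusted p = 0.0022), Pcdha6 (0.71, adjusted p = 0.024), Pcdhgc4 (0.51, adjusted p = 0.0010), Pcdhb12 (0.48, adjusted p = 0.032) and Pcdhb16 (0.43, adjusted p = 0.0065). Negative values belonged to Pcdhgc5 (−1.07, adjusted p = 7.8e-05), Pcdhgc3 (−0.89, adjusted p = 3.9e-05) and Pcdhga5 (−0.44, adjusted p = 0.0058).

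Single libraries stood apart from their group in 3 of 92 sets of 4 libraries, where chance sets about 1 in 20 apart. They were Pcdha12 in cKO replicate 1 (8.39 CPM), Pcdhgb7 in cWT_SOD1 replicate 2 (14.4 CPM) and Pcdhgc5 in cKO replicate 4 (10.9 CPM), each the highest of its group.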

How the results depend on the processing

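Over the alternatives and left-out libraries, the number of members called ran from 34 to 39 for the transgene in cWT, 23 to 30 for cKO with the transgene and 15 to 20 for the interaction, and was 0 for cKO without the transgene. For the transgene in cKO it was 5 with only the 2 groups compared, against 2, and 1 to 3 without a single replicate. Replicate numbers gave no clear pairing of the libraries. Correlations of deviations were −0.25 to 0.31 over 24 same-number pairs and −0.34 to 0.28 over 72 other pairs. Above 0.1 were 11 of the 24 and 22 of the 72. The fit with the replicate block called 36, 2, 0, 28 and 17 members. Named values kept their direction except small ones that did not pass. With FPKM plus 0.1 or 1, Pcdhb9 turned to 0.032 and 0.027 for the transgene in cKO, and Pcdhgc3 to −0.0059 and −0.0056 for cKO without the transgene. Without single replicates, Pcdhb9 ran from −0.11 to 0.17 for the transgene in cKO, from −0.18 to 0.23 for cKO without the transgene and from −0.41 to 0.0067 for the interaction. For cKO without the transgene, Pcdhac2 ran from −0.026 to 0.050 and Pcdhb16 from −0.0028 to 0.062. The cause was not tested.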
